A study of Homo sapiens with 12 samples.

Results

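The comparison set 3 triple KD libraries against 3 SLTM KD libraries, 6 of the 12 libraries analysed, and the members were chosen by sample title alone. Triple KD cells were HEK293 cells (the Flp-In T-REx derivative of the human embryonic kidney line) transfected with siRNAs to SAFB1, SAFB2 and SLTM together. SLTM KD cells were the same line given the SLTM siRNA topped up with negative control siRNA, per the study's methods, so that both groups received the same total dose. Both groups therefore carried the SLTM siRNA, and the comparison asks what the added loss of SAFB1 and SAFB2 did once SLTM was already low. A further pair of groups with 3 libraries each was used beside it: SAFB1 KD cells, given SAFB1 siRNA with negative control siRNA, and control cells, given control siRNA. Poly(A)+ RNA of each group was sequenced from 3 replicates, which the series text calls biological, and no library with SAFB2 siRNA alone was analysed here. The effects of the SAFB1 siRNA, of the SAFB2 siRNA and of the missing negative control siRNA cannot be told apart in triple KD cells.

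SAFB1 (gene symbol SAFB), SAFB2 and SLTM are nuclear scaffold attachment factors that carry a DNA-binding SAP domain and an RNA recognition motif. The study reports purine-rich RNA rich in adenosine as what they bind, with GAAGAA as the core motif, and such sequence is a classical exonic splicing enhancer. A processed pseudogene is an intronless copy of an mRNA pasted back into the genome, and many of these copies lie in an intron of another gene, here called the host.

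The siRNAs define the groups, and their sense strands are shown because the comparison turns on which target each one can pair with. The capitals mark the bases opposite the guide seed, guide bases 2 to 8, and the closing tt is the overhang of the duplex.
SAFB1 siRNA: ggaccaagaugAUCAGAAatt
SAFB2 siRNA: ggacggucgugAUGGAUAatt
SLTM siRNA: gcauuagaauaAUUCGUGatt
Each paired strand of 19 bases matched its own target exactly in coding sequence on GRCh38. The SAFB1 site lay in exon 12 of 21 of SAFB (chr19:5654145-5654163, plus strand), the SAFB2 site in exon 13 of 21 of SAFB2 (chr19:5598848-5598866, minus strand), and the SLTM site in exon 15 of 21 of SLTM (chr15:58890402-58890420, minus strand). Against annotated transcripts of the other family members, the closest site of the SAFB1 siRNA had 4 mismatches in SAFB2 and 5 in SLTM. The SAFB2 siRNA came within 3 mismatches of SAFB and 7 of SLTM, and the SLTM siRNA within 7 of SAFB and 8 of SAFB2.

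All 3 targets were low where their siRNA was given. SAFB had 36.9, 37.9 and 40 CPM in triple KD libraries, against 232, 233 and 241 CPM in SLTM KD libraries. The log2 fold change of SAFB was -2.62 ± 0.03 (adjusted p = 1.55e-62). All triple KD libraries lay far below all SLTM KD libraries. SAFB2 had 28.2, 28.7 and 30.4 CPM in triple KD libraries, against 138, 138 and 142 CPM in SLTM KD libraries, again with no overlap. The log2 fold change of SAFB2 was -2.26 ± 0.03 (adjusted p = 1.45e-57). SLTM, targeted in both groups, had 22.6, 25.8 and 26.6 CPM in triple KD libraries, against 19.6, 19.3 and 22.7 CPM in SLTM KD libraries. The triple KD and SLTM KD libraries overlapped for SLTM, although the fitted level was higher in triple KD cells (log2 fold change 0.29 ± 0.04, adjusted p = 1.65e-07). Over the other groups, SLTM averaged 139 ± 3.2 CPM in SAFB1 KD and 116 ± 1.2 CPM in control cells, so it was low in both groups compared here. SAFB2 averaged 209 ± 3.8 CPM in SAFB1 KD cells, above the 126 ± 2.5 CPM of control cells. CPM is the usual read count scaled to a common library total, after TMM scaling of library size, and group averages are given as mean ± SD (n = 3). Fold changes are log2, triple KD minus SLTM KD, ± SE.

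**Figure D1:**
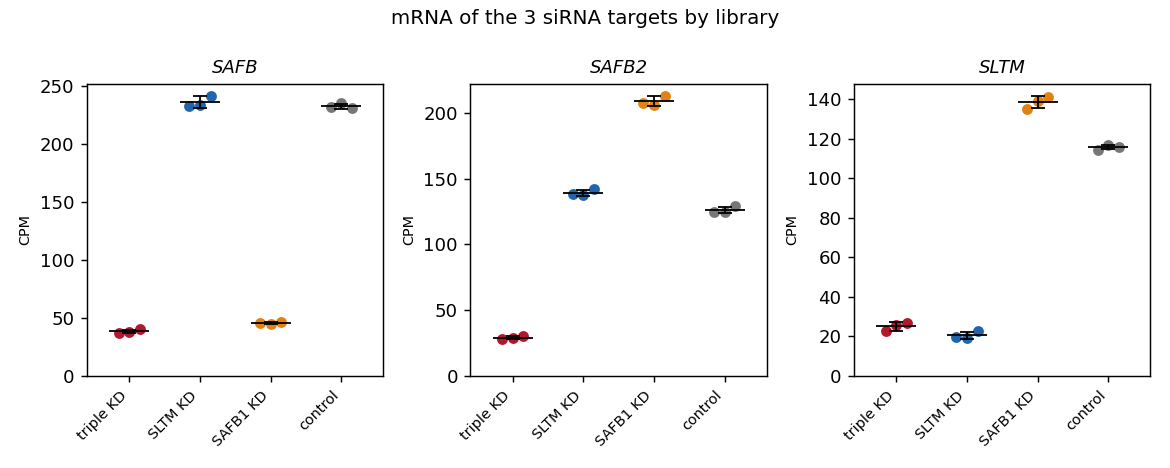
Level of the 3 siRNA targets in each library, in CPM from 0, by group, with the mean and SD (n = 3) in black. SAFB and SAFB2 averaged 38.2 and 29.1 CPM in triple KD against 236 and 140 CPM in SLTM KD cells, while SLTM was at 25 and 20.5 CPM.

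The libraries held 57001123 to 69495905 counts in triple KD and 58070400 to 62227480 in SLTM KD cells, and none of the replicate pairs was within sampling noise of being the same library. Mitochondrial genes took 4.11 to 4.51% of counts in triple KD and 3.89 to 4.25% in SLTM KD libraries. Intermediate filament genes that mark HEK293 stayed well expressed in both groups, at a lower sum in triple KD cells. VIM averaged 1077 ± 6.5 CPM in triple KD and 1164 ± 10.2 CPM in SLTM KD cells. The list summed to 1664 to 1685 CPM against 1798 to 1833 CPM, with 1 of 6 genes higher and 3 lower. Of the 8 leukocyte genes tested all were under 1 CPM in both groups, and the list summed to 0.895 to 1.12 CPM in triple KD and 0.834 to 1.56 CPM in SLTM KD libraries. The germ cell genes summed to 2.92 to 3.05 CPM against 2.80 to 3.66 CPM, the fibroblast genes to 16.4 to 17.1 against 17.1 to 17.7 CPM, and no member of these 3 lists was called. Neuronal genes summed to 20.2 to 22 CPM in triple KD and 22.9 to 23.1 CPM in SLTM KD libraries, with 2 of 9 lower and none higher. Epithelial genes summed to 160 to 162 CPM against 170 to 175 CPM, with 1 of 8 higher and 2 lower. Of the 5 differentiated nephron genes tested, 4 were under 1 CPM in both groups, and the list summed to 54.2 to 58.4 CPM in triple KD and 53.1 to 54.2 CPM in SLTM KD libraries. Nearly all of that sum was LRP2, the endocytic receptor megalin, which averaged 55.1 ± 2.2 CPM in triple KD and 52.8 ± 0.67 CPM in SLTM KD cells and did not pass the test (log2 fold change 0.06 ± 0.03, adjusted p = 0.122). One of the 4 low genes, CUBN, was lower, a call lost without SLTM KD replicate 1 (adjusted p = 0.0551) or triple KD replicate 3 (adjusted p = 0.0519). The part of other cell types in the results was not tested.

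Of 26688 genes tested, 4669 were higher in triple KD cells (17.5%) and 5010 were lower (18.8%) at an adjusted p under 0.05. Most of these differences were small. The median size of a called change was 0.27 on the log2 scale, and 75% of the called genes changed by less than 0.5. Replicates were tight, with a biological coefficient of variation of 2.14%, and in 44.1% of all genes the 3 triple KD libraries did not overlap the 3 SLTM KD libraries. For changes beyond 2-fold, 105 genes passed upwards (0.393% of genes) and 79 downwards (0.296%), against 62 and 52 with DESeq2. The genes over 2-fold were of different kinds in each direction. Of the 105 higher genes, 65 were pseudogenes, 26 protein-coding and 9 lncRNA, whereas of the 79 lower genes 59 were protein-coding, 13 lncRNA and 5 pseudogenes. The 26688 genes tested held 16028 protein-coding genes, 5998 lncRNAs and 3316 pseudogenes. Of the pseudogenes, 1.96% were over 2-fold higher and 0.151% lower, and of the protein-coding genes 0.162% and 0.368%. Genes near 0 in SLTM KD cells could hardly be called lower. Low level was common among the higher genes, since 80 of the 105 averaged under 1 CPM in SLTM KD cells and 39 did so in triple KD cells. Of the higher genes, 7 had 3 or fewer counts over all SLTM KD libraries, and their folds are no bound.

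**Figure D2:**
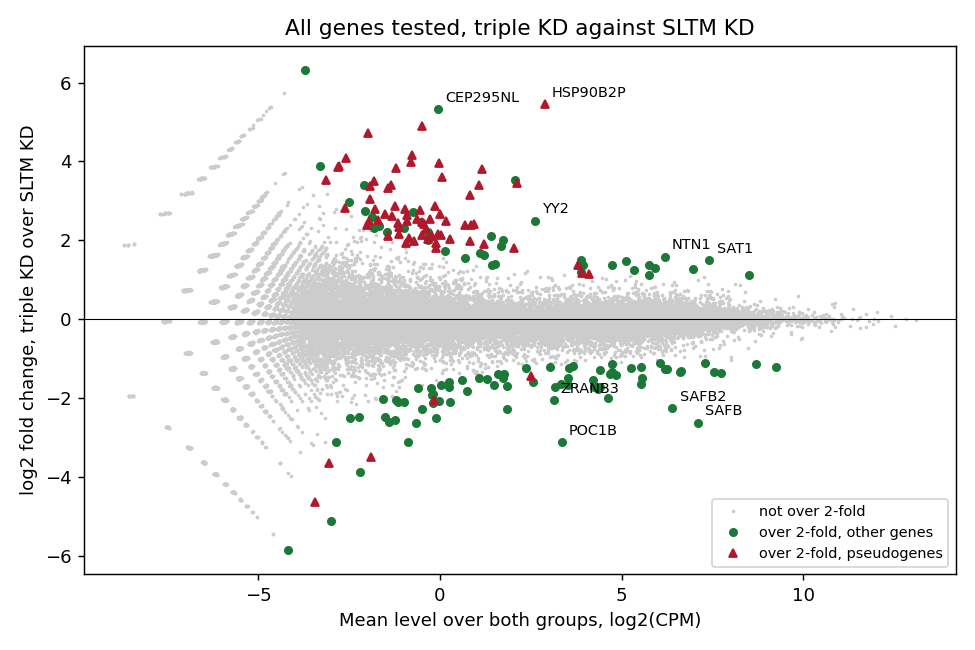
Fold change of every gene tested, as log2 of triple KD over SLTM KD, against its mean level over both groups in log2 CPM (genes at 0 in both groups are not drawn). Red triangles are pseudogenes and green points other genes past the 2-fold test. The 105 genes past the test upwards include 65 pseudogenes, mostly at low level, while POC1B, SAFB and SAFB2 mark the lower side.

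Intronic pseudogenes in the orientation of their host were the group most visible among these changes. Of 756 processed pseudogenes lying in an intron of a gene on the same strand, 161 were higher and 12 lower (21.3% and 1.59%), and 53 were over 2-fold higher with none over 2-fold lower. With DESeq2 35 were over 2-fold higher. Over all genes tested, 17.5% were higher and 18.8% lower, with 0.393% over 2-fold higher and 0.296% over 2-fold lower. The median log2 fold change of the 756 was 0.50, against -0.01 over all genes tested. Of 484 processed pseudogenes in introns of opposite-strand genes only, 32 were higher (20 with DESeq2) and 8 lower, with a single gene over 2-fold in each direction and a median of 0.32. Of 1198 lying in no intron, 99 were higher (62 with DESeq2), 41 lower (24 with DESeq2), 5 over 2-fold higher and 2 over 2-fold lower, with a median of 0.30. Many members of these classes had few counts, and a fitted fold change of such a gene depends on the prior count. Genes were kept on counts summed over all 12 libraries, so a gene could enter mainly through its triple KD counts. A gene near 0 in SLTM KD cells could hardly be called lower, so the split by direction is partly set by level. Other genes nested on the same strand were higher in 118 and lower in 81 of 1715 cases, with 15 and 2 over 2-fold.

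HSP90B2P, a copy of the endoplasmic reticulum chaperone gene HSP90B1, stood at the head of the named genes. It had 14.5, 14.3 and 14.5 CPM in triple KD libraries, against 0.369, 0.352 and 0.258 CPM in SLTM KD libraries. The log2 fold change of HSP90B2P was 5.45 ± 0.13 (adjusted p = 2.48e-43). It was 2.12 ± 0.43 CPM in SAFB1 KD and 0.262 ± 0.050 CPM in control cells, so that the level in triple KD cells was above all other groups. LRRC28, the coding gene whose intron holds it, went the other way. LRRC28 had 4.06, 4.32 and 4.15 CPM in triple KD libraries, against 13.5, 14.6 and 13.4 CPM in SLTM KD libraries, with a log2 fold change of -1.73. The same pairing was seen for G3BP1P1, a copy of a stress granule gene, in ZRANB3, which encodes a DNA translocase of stalled replication forks. G3BP1P1 had 1.70, 2.05 and 1.80 CPM in triple KD libraries, against 0.144, 0.117 and 0.0860 CPM in SLTM KD libraries. ZRANB3 had 3.43, 3.28 and 3.49 CPM in triple KD libraries, against 14.6, 13.4 and 14.2 CPM in SLTM KD libraries. In both pairs the pseudogene was higher and its host lower in all triple KD libraries, by 3.97 and -2.05 in the second pair.

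For the other pseudogenes among the 12 largest increases of genes with a symbol and at least 1 CPM in either group, the host changed by -0.69 to 0.17 on the log2 scale. HMGB1P24, a copy of the chromatin protein gene HMGB1, had 1.37, 1.5 and 1.25 CPM in triple KD libraries, against 0.0642, 0.0168 and 0.0516 CPM in SLTM KD libraries, a log2 fold change of 4.89. Its host ACACA, the acetyl-CoA carboxylase of fatty acid synthesis, averaged 177 ± 2.1 CPM in triple KD and 186 ± 4.3 CPM in SLTM KD cells (log2 fold change -0.07, adjusted p = 0.00595). KRT8P33, a keratin copy in the centriole gene CEP120, had 4.27, 4.09 and 4.18 CPM in triple KD libraries, against 0.289, 0.285 and 0.309 CPM in SLTM KD libraries, and CEP120 averaged 40.2 ± 1.2 CPM in triple KD against 45.7 ± 1.4 CPM in SLTM KD cells. TNRC18P1 had 3.71, 3.68 and 4.18 CPM in triple KD libraries, against 0.257, 0.402 and 0.430 CPM in SLTM KD libraries, and its host TBC1D9 was slightly higher (log2 fold change 0.17 ± 0.03, adjusted p = 3.04e-05). PCNPP1 rose by 3.15 while its host BRAP averaged 41.1 ± 0.76 CPM in triple KD and 41.6 ± 1 CPM in SLTM KD cells, which did not pass the test (log2 fold change -0.02 ± 0.03, adjusted p = 0.709). AP4E1, a gene of vesicle sorting, fell to 21.8 ± 0.72 CPM in triple KD, against 35.3 ± 2.3 CPM in SLTM KD cells (log2 fold change -0.69 ± 0.04, adjusted p = 2.86e-22). The remaining pseudogenes among the 12 largest increases of genes with a symbol and at least 1 CPM in either group were DCAF13P3 in AP4E1 (4.15, host -0.69), PTMAP1 in the tubulin acetyltransferase gene ATAT1 (3.99, host -0.40), SEC14L1P1 in the DNA repair gene ALKBH3 (3.44, host -0.34) and KRT8P39 in the nuclear pore gene NUP107 (2.86, host 0.06).

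Over all 53 same-strand pseudogenes past the 2-fold test, the median level was 1.16 CPM in triple KD and 0.165 CPM in SLTM KD cells. They lay in 52 hosts, of which 35 were lower, 8 higher and 9 not called, with a median log2 fold change of -0.23 and a range of -2.05 to 0.43. Among all 613 hosts of same-strand processed pseudogenes 220 were lower (35.9%) and 126 higher (20.6%), with a median of -0.08. Calls depend on level, and hosts were not matched for it to the genes they are set beside. For genes of any kind with at least 10 CPM in either group, 32.9% were lower and 33.7% higher. Hosts of other same-strand nested genes only were lower in 349 and higher in 322 of 1190 cases. Coding genes hosting no same-strand gene were lower in 25.5% and higher in 23.5% of 14505 cases. The parents of the pseudogenes lay on both sides of 0. For 45 of the 53 a parent gene was found by symbol, 37 parents in all, of which 14 were higher, 13 lower and 10 not called, with a median of 0.004 and a range of -0.59 to 0.47. Pseudogenes share long stretches with their parents and with each other, and only uniquely placed reads entered the counts, so their levels are uncertain.

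**Figure D3:**
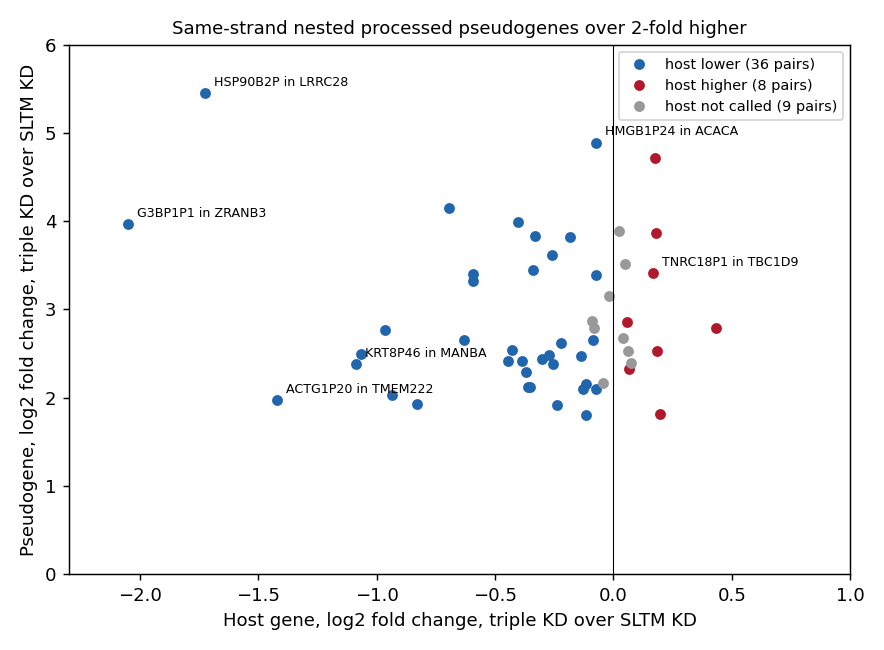
Each point is a same-strand nested processed pseudogene past the 2-fold test, with the log2 fold change (triple KD over SLTM KD) of its host on the x axis and its own on the y axis. The pseudogenes were chosen for being higher, so only the x axis is free: 36 of the 53 pairs have a host called lower, 8 a host called higher and 9 a host not called.

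Keratin copies recurred among them. Of 8 KRT8 pseudogenes on the strand of a host, 5 were higher, all of them over 2-fold, and of 7 such KRT18 pseudogenes 2 were higher and over 2-fold, with none lower in either family. KRT8 itself, whose product is an epithelial keratin that HEK293 cells make, had 255, 242 and 248 CPM in triple KD libraries, against 273, 273 and 284 CPM in SLTM KD libraries. KRT8 thus changed by -0.16, in the direction opposite to its copies. KRT8P46 in MANBA averaged 2.68 CPM in triple KD and 0.519 CPM in SLTM KD cells, and MANBA averaged 6.98 and 14.8 CPM in the same groups.

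The motif GAAGAA, and its reverse complement TTCTTC for the other strand, were counted in the annotated transcript of each processed pseudogene, overlapping copies included. Of the 53 past the 2-fold test, 77.4% held GAAGAA at least once, against 67.1% of the 161 called higher, 53.8% of the 595 same-strand pseudogenes not called higher, and 60.3% of all 2438 processed pseudogenes. The lengths differed as well, with medians of 844, 800, 596 and 673 bases in the same order, and a longer sequence holds any motif more often. Per kilobase, the mean was 2.34 copies in the 53, 1.93 in the 161, 1.69 in the 595 and 1.96 in all, and that of TTCTTC was 0.255, 0.316, 0.381 and 0.356. Host level differed too, with medians of 41.8 CPM in the 53 and 21.2 CPM in the 595 in SLTM KD cells. With hosts of at least 10 CPM there, the GAAGAA mean was 1.81 in 109 called higher and 1.59 in 303 not called higher. The 484 pseudogenes in introns of opposite-strand genes only, of which a single one was over 2-fold higher, had a mean of 2.25 GAAGAA per kilobase, and 63% of them held it. Pseudogenes not nested in any intron had 1.98 per kilobase. The adenosine content had medians of 29% in the 53 and 29.8% in all. These are descriptions, and a match is not a binding site.

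The stretch of 150 bases with the most GAAGAA is shown for 4 of the named pseudogenes, to set copies with many and with fewer GAAGAA beside a keratin copy that held none over its whole length of 1423 bases. Capitals mark GAAGAA, and each sequence is given in the direction of the pseudogene, on GRCh38.
HSP90B2P (chr15:99258420-99258569, plus strand): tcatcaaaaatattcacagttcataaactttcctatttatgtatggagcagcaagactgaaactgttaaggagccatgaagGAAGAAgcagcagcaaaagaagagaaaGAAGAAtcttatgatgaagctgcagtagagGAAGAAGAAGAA
G3BP1P1 (chr2:135511388-135511537, minus strand): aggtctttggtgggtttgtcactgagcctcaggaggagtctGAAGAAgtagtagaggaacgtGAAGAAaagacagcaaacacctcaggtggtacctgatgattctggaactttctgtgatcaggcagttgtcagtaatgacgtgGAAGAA
TNRC18P1 (chr4:140642596-140642745, minus strand): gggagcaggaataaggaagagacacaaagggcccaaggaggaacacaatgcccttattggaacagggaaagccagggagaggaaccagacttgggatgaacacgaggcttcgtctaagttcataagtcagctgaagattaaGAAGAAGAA
KRT8P33 (chr5:123402195-123402344, minus strand): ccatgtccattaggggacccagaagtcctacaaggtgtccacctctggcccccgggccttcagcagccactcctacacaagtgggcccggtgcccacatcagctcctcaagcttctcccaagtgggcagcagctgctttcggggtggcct
HSP90B2P held 12 GAAGAA in 2384 bases and G3BP1P1 7 in 1398, about 5.03 and 5.01 per kilobase, whereas TNRC18P1 held 5 in 3650 bases, 1.37 per kilobase. KRT8P33, higher by 3.82, held none, and neither did KRT8P39 in 1433 bases.

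Outside pseudogenes, the retrogenes nested in coding genes and their hosts were followed as lists. The study picked out YY2 in MBTPS2 and GALNT4 in POC1B in human cells and MCTS2 in HM13 in mouse cells, and the other pairs were added with earlier results of these data known, so the direction of the lists is not independent evidence. Of 4 nested retrogenes tested, 3 were higher and none lower, and MCTS2 was not tested. YY2, an intronless relative of the transcription factor gene YY1 within MBTPS2, had 11.2, 11 and 9.26 CPM in triple KD libraries, against 1.94, 1.94 and 1.67 CPM in SLTM KD libraries, with no overlap between groups. The log2 fold change of YY2 was 2.50 ± 0.09 (adjusted p = 3.21e-32). MBTPS2, the site-2 protease that releases membrane-bound transcription factors such as the SREBPs, had 22.2, 22.8 and 22.4 CPM in triple KD libraries, against 69.6, 73.5 and 66.2 CPM in SLTM KD libraries, a log2 fold change of -1.64. RBMXL1, a retrogene that overlaps KYAT3 on the same strand, encodes an hnRNP-like RNA-binding protein. Its annotated span begins just upstream of the annotated start of KYAT3, so it lies outside the intron definition used for the pseudogenes. RBMXL1 had 59.9, 60.9 and 58.8 CPM in triple KD libraries, against 32.7, 32.8 and 31.3 CPM in SLTM KD libraries. KYAT3, an aminotransferase gene of the kynurenine pathway, had 8.44, 8.60 and 9.36 CPM in triple KD libraries, against 28, 30 and 28.7 CPM in SLTM KD libraries. GALNT4, a glycosyltransferase gene in POC1B, was at low level, averaging 0.622 ± 0.098 CPM in triple KD and 0.318 ± 0.077 CPM in SLTM KD cells (log2 fold change 0.96 ± 0.27, adjusted p = 0.00269). UTP14C in ALG11 averaged 8.71 ± 0.87 CPM and 8.59 ± 0.82 CPM in the same groups and did not pass the test. Of the 5 hosts on the list, 4 were lower and ALG11 was higher.

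POC1B, which encodes a centriolar protein needed for cilia, showed the largest named fall. It had 2.12, 2.12 and 2.10 CPM in triple KD libraries, against 18.4, 18.3 and 18 CPM in SLTM KD libraries. The log2 fold change of POC1B was -3.11 ± 0.07 (adjusted p = 1.10e-44). It was 12 ± 0.34 CPM in SAFB1 KD and 21.8 ± 0.69 CPM in control cells, so each group stood apart in level, with triple KD lowest. The other coding genes with large falls held several enzymes and transporters. FAR2, a fatty acyl-CoA reductase gene, had 9.47, 9.43 and 10.4 CPM in triple KD libraries, against 40, 40.9 and 37.4 CPM in SLTM KD libraries. XK, a membrane protein gene of the Kell blood group complex, had 9.09, 9.80 and 8.93 CPM in triple KD libraries, against 32, 33.1 and 30.3 CPM in SLTM KD libraries, and averaged 15.9 ± 0.54 CPM in SAFB1 KD and 33.3 ± 0.45 CPM in control cells. SLC1A1, a glutamate transporter gene, had 5.76, 5.31 and 5.33 CPM in triple KD libraries, against 18, 17.1 and 16.8 CPM in SLTM KD libraries. These 3 genes changed by -2.01, -1.78 and -1.67, and all were also lower in SAFB1 KD than in control cells. CCDC3 behaved otherwise. It had 9.25, 9.76 and 10.4 CPM in triple KD libraries, against 31.8, 32.9 and 32 CPM in SLTM KD libraries, yet averaged 31 ± 0.78 CPM in SAFB1 KD and 31.8 ± 0.53 CPM in control cells, so that only triple KD libraries were low among the 4 groups. Little change in the single knockdowns was not particular to CCDC3. Apart from SAFB and SAFB2, 33 coding genes of at least 10 CPM in either group were over 2-fold lower. Of these, 15 changed by less than 0.2 on the log2 scale against control in both single knockdowns. At lower levels, CEACAM19 changed by -2.27, CCDC102B by -2.12, SEMA5B, a semaphorin gene, by -1.93, the zinc finger gene ZNF814 by -1.83, the guanylate cyclase pseudogene GUCY1B2 by -2.04, and the lncRNAs ZNF571-AS1 and PROX1-AS1 by -2.64 and -2.09.

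Some of the hosts of transposable elements named by the study formed a further list, also chosen on these cells. Other hosts that the study names, such as HIBADH and LONRF3, were not on it, so its counts do not cover them. Of the 5 hosts on the list, 4 were lower and 1 was higher. RB1, the retinoblastoma tumour suppressor, had 55.2, 54.1 and 54 CPM in triple KD libraries, against 140.1, 144 and 132 CPM in SLTM KD libraries. It averaged 124 ± 4.8 CPM in SAFB1 KD and 146 ± 1.4 CPM in control cells, and changed by -1.35 on the added loss. CENPQ, a centromere protein gene, averaged 18.6 ± 0.71 CPM in triple KD against 23.8 ± 0.30 CPM in SLTM KD cells. CENPQ was at 33.7 ± 0.47 CPM in SAFB1 KD and 34.3 ± 0.80 CPM in control cells, so SLTM KD cells already held less of it than these. RAD54L2, a helicase-like gene, was the exception, averaging 52.6 ± 1.8 CPM in triple KD and 29.8 ± 0.72 CPM in SLTM KD cells (log2 fold change 0.82 ± 0.04, adjusted p = 3.90e-29).

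Several well expressed coding genes were far higher in triple KD cells than in any other group. SAT1, the spermidine and spermine acetyltransferase of polyamine breakdown, had 238, 258 and 259 CPM in triple KD libraries, against 85.7, 88.8 and 92.8 CPM in SLTM KD libraries. It averaged 89 ± 4.1 CPM in SAFB1 KD and 89.7 ± 2.1 CPM in control cells, and changed by 1.5 (adjusted p = 1.09e-47). NTN1, the axon guidance ligand netrin-1, had 112, 107 and 108 CPM in triple KD libraries, against 34.9, 36.7 and 36.9 CPM in SLTM KD libraries, and was at 35.7 ± 0.40 CPM in SAFB1 KD and 32.9 ± 1.1 CPM in control cells. DNMT3B, a de novo DNA methyltransferase gene, had 51.4, 51.3 and 50.6 CPM in triple KD libraries, against 17.9, 19.3 and 17.9 CPM in SLTM KD libraries. Its levels in SAFB1 KD and control cells were 18.8 ± 0.33 CPM and 17.3 ± 0.57 CPM, close to those of SLTM KD cells. RBPJ, the DNA-binding factor of Notch signalling, averaged 86 ± 4 CPM in triple KD, 35 ± 1.4 CPM in SLTM KD, 35.5 ± 0.42 CPM in SAFB1 KD and 35 ± 0.97 CPM in control cells. The receptor tyrosine kinase gene MET averaged 177 ± 3.3 CPM, 73.9 ± 1.7 CPM, 71.8 ± 2.8 CPM and 64.6 ± 1.5 CPM in the same order. For all of these genes the triple KD libraries stood above every library of the other groups. Smaller increases over control passed the test in both single knockdowns for MET (0.19 in SLTM KD, adjusted p = 4.65e-07, and 0.15 in SAFB1 KD, adjusted p = 7.66e-05) and for NTN1 (0.14 in SLTM KD, adjusted p = 0.00288, and 0.12 in SAFB1 KD, adjusted p = 0.0140). WSB1, a ubiquitin ligase adaptor gene, changed by 1.37.
Other genes of the same rank differed in this respect. TIGD1, derived from a Tigger DNA transposon, averaged 21.8 ± 0.30 CPM in triple KD, 7.73 ± 0.34 CPM in SLTM KD, 17.4 ± 0.45 CPM in SAFB1 KD and 8.10 ± 0.20 CPM in control cells, so SAFB1 KD alone was well above control. KIT, the stem cell factor receptor gene, averaged 38.2 ± 0.78 CPM, 14.7 ± 0.046 CPM, 18.2 ± 1.3 CPM and 13.8 ± 0.61 CPM in the same order.

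**Figure D4:**
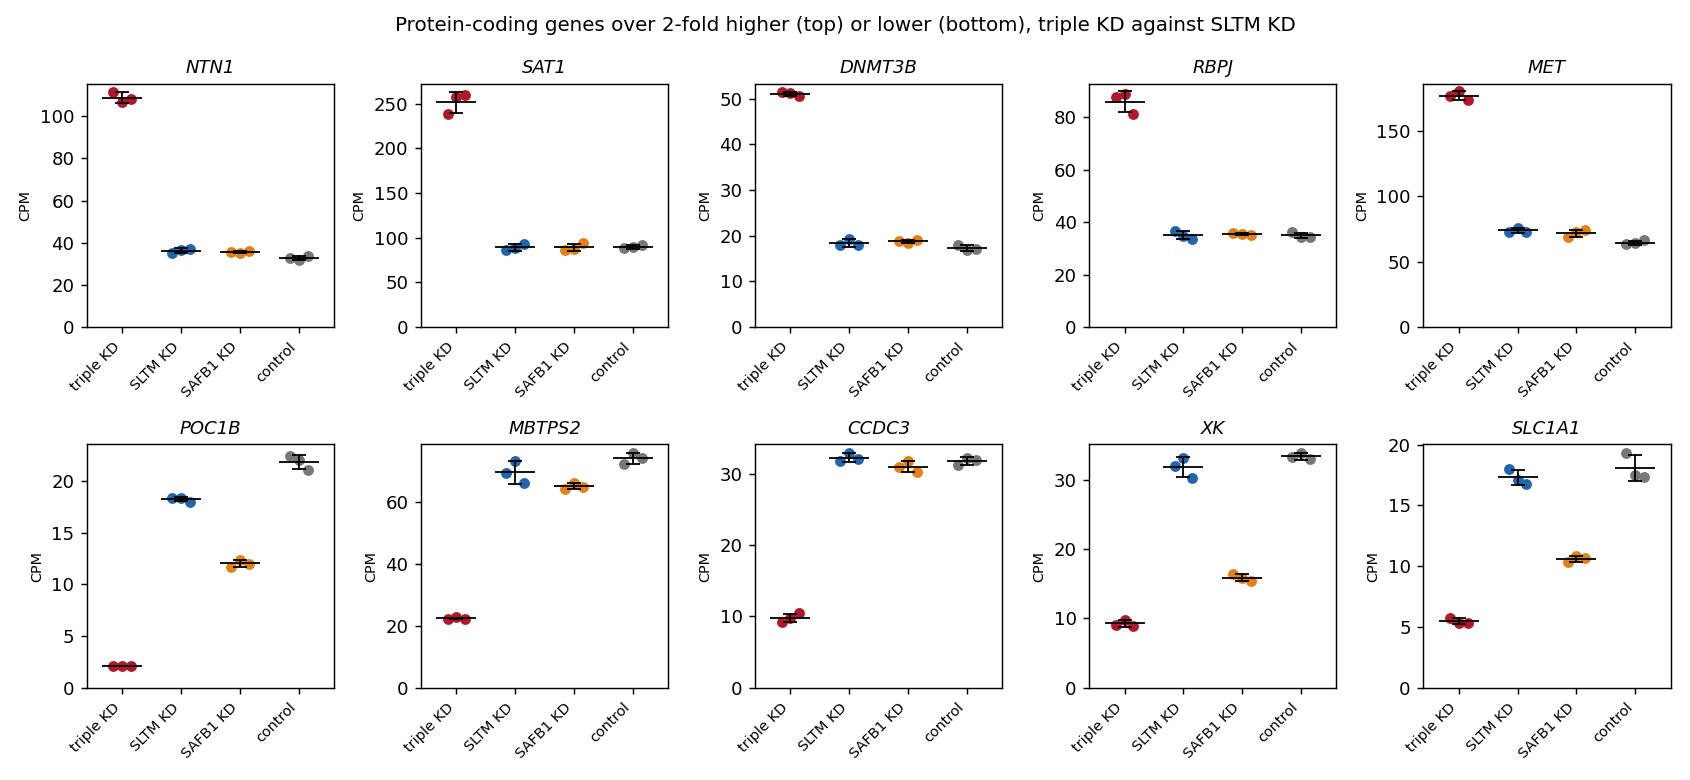
Level in each library, in CPM from 0, of 5 coding genes over 2-fold higher (top row) and 5 over 2-fold lower (bottom row) in triple KD cells, relative to SLTM KD, with mean and SD (n = 3) in black. SAT1, DNMT3B, RBPJ and CCDC3 were not called against control in either single knockdown, and NTN1 and MET were slightly higher than control in both. POC1B and MBTPS2 were called lower than control in both single knockdowns, and XK and SLC1A1 in SAFB1 KD cells only.

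Whether the added loss acted like the loss of SAFB1 in control cells was tested as a difference of steps, the log2 fold change of triple KD over SLTM KD less that of SAFB1 KD over control. These contrasts share no library. The SAFB2 siRNA was in the first step only, and SAFB2 mRNA was higher in SAFB1 KD than in control cells, so the steps differ in SAFB2 by design. At an adjusted p under 0.05, the step difference was called above 0 for 2529 genes (9.48%) and below 0 for 3184 (11.9%). Of the 105 genes over 2-fold higher, 78 had a step difference called above 0 and none called below, and 43 were also called higher in SAFB1 KD over control, where 5.04% of all genes were. Of the 79 over 2-fold lower, 73 had a step difference called below 0, and 46 were called lower in SAFB1 KD, against 4.62% of all genes. These members were picked on the first step, so the shares describe them and carry no test. Their medians were 2.39 for triple KD over SLTM KD and 0.67 for SAFB1 KD over control in the 105, and -1.71 and -0.37 in the 79.

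Among genes with a called step difference, a symbol and at least 1 CPM in either group, the difference was highest for HMGB1P24 (4.82), CEP295NL (4.33), TNRC18P1 (3.82), PTMAP1 (3.73), KRT8P33 (2.90) and G3BP1P1 (2.61). CEP295NL, a short relative of the centrosomal gene CEP295 that lies in an intron of the metalloproteinase inhibitor gene TIMP2, had 1.86, 1.96 and 1.78 CPM in triple KD libraries, against 0.0481, 0 and 0.0860 CPM in SLTM KD libraries. It averaged 0.155 ± 0.020 CPM in SAFB1 KD and 0.0772 ± 0.031 CPM in control cells, and TIMP2 averaged 39.1 ± 0.55 CPM in triple KD and 43.6 ± 1.1 CPM in SLTM KD cells. The difference was lowest for SAFB2 (-2.99), POC1B (-2.25), CEACAM19 (-2.08), CCDC102B (-1.89), SEMA5B (-1.73) and CCDC3 (-1.68). For DCAF13P3, one of the 12 increases named above, the difference was 1.23 and did not pass the test (adjusted p = 0.273). ALMS1-IT1, an intronic transcript of the cilium gene ALMS1, had 8.06, 7.75 and 7.23 CPM in triple KD libraries, against 0.770, 0.671 and 0.550 CPM in SLTM KD libraries. It was already at 4.41 ± 0.68 CPM in SAFB1 KD against 0.725 ± 0.083 CPM in control cells, and its step difference was 0.90.

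The RNA-binding proteins around the family moved by smaller amounts. Their counts are set beside genes with at least 10 CPM in either group, of which 33.7% were higher and 32.9% lower. Of 5 genes for known binding partners of SAFB proteins, 4 were higher and 1 was lower, with a median of 0.55. Among the 4 was RBMXL1 (0.89), also counted above as a nested retrogene. ZNF638 had 214, 221 and 217 CPM in triple KD libraries, against 148, 149 and 149 CPM in SLTM KD libraries. It was already at 211 ± 6.8 CPM in SAFB1 KD, against 157 ± 5.6 CPM in control cells. RBM12B averaged 76 ± 2.6 CPM in triple KD and 50.2 ± 0.68 CPM in SLTM KD cells, and RBMX 549 ± 6.7 CPM and 483 ± 6.2 CPM. The member that was lower was NCOA5 (-0.20). Of 14 SR protein genes, whose products bind exonic enhancers, 3 were higher (1 without triple KD replicate 2 or 3) and 7 lower, with changes of -0.39 to 0.08. TRA2A had 66.9, 69.3 and 67.1 CPM in triple KD libraries, against 91.9, 89.6 and 84.3 CPM in SLTM KD libraries, and SRSF8 and SRSF6 changed by -0.31 and -0.14. Of 26 hnRNP genes, 11 were higher and 6 lower, led by RALY (0.31), HNRNPD (0.21) and, on the lower side, SYNCRIP (-0.21). Of 21 cleavage and polyadenylation factor genes, 12 were higher and 4 lower, with NUDT21 at 0.37, CPSF1 at 0.36 and PAPOLA, a poly(A) polymerase gene, at -0.19. Of 14 genes with giant coding exons, 6 were higher and 6 lower. VCAN, the proteoglycan versican, had 264, 275 and 266 CPM in triple KD libraries, against 178, 177 and 170.0 CPM in SLTM KD libraries, and KIF1B, a kinesin gene, had 127, 123 and 119 CPM in triple KD libraries, against 157, 161 and 153 CPM in SLTM KD libraries. ANK2 changed by 0.44 and RTN3 by -0.37.

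The lists are read against well expressed genes, since calls depend on level. Among 10127 genes with at least 10 CPM in either group, 33.7% were higher and 32.9% lower. The G2/M and mitosis list stood above the first of these, with 15 of 25 genes higher and 2 lower and a median of 0.09. TOP2A, the replication and mitosis topoisomerase, had 931, 946 and 917 CPM in triple KD libraries, against 757, 767 and 728 CPM in SLTM KD libraries, and UBE2C, CDC20 and KIF23 changed by 0.35, 0.24 and 0.18. Replication-dependent histones, whose mRNAs mostly lack a poly(A) tail, were lower in 14 of 36 cases and higher in 1, and 22 of the 36 were under 1 CPM. H2BC12 had 43.1, 42.3 and 44.3 CPM in triple KD libraries, against 67.7, 66.2 and 72.4 CPM in SLTM KD libraries, and H1-2 had 12.5, 12.9 and 13.3 CPM in triple KD libraries, against 22.3, 22 and 23.3 CPM in SLTM KD libraries. Of 30 G1/S and replication genes, 11 were higher and 6 lower (36.7% and 20%). E2F2, a transcription factor of S-phase entry, averaged 54.5 ± 3.2 CPM in triple KD and 32.5 ± 0.25 CPM in SLTM KD cells, and RRM2, a ribonucleotide reductase subunit, 112 ± 4.4 CPM and 148 ± 5.9 CPM.

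DNA double-strand break repair genes were lower in 14 and higher in 6 of 30 cases. BRCA2 had 34.5, 32.9 and 31 CPM in triple KD libraries, against 51.7, 49.3 and 47.3 CPM in SLTM KD libraries, POLQ, the polymerase of end joining at microhomology, had 42.3, 42.1 and 43.1 CPM in triple KD libraries, against 64.5, 63 and 61.2 CPM in SLTM KD libraries, and the kinase gene ATR had 36.8, 38.1 and 34.4 CPM in triple KD libraries, against 53.3, 54.3 and 50.8 CPM in SLTM KD libraries. These 3 were lower in all triple KD libraries, while XRCC4, of non-homologous end joining, changed by 0.69. BRCA2 also hosts the pseudogene IFIT1P1, which averaged 0.677 CPM in triple KD and 0.0664 CPM in SLTM KD cells. Heat shock and chaperone genes were lower in 10 and higher in 3 of 18 cases. HSPA8, the constitutive HSP70, averaged 1553 ± 26 CPM in triple KD and 1914 ± 8 CPM in SLTM KD cells, and HSPA4L, CHORDC1 and BAG3 changed by -0.49, -0.45 and -0.36. The stress response list split, with 6 higher and 7 lower of 24 (25% and 29.2%). PDIA4, an endoplasmic reticulum disulfide isomerase, had 366, 364 and 361 CPM in triple KD libraries, against 197, 191 and 201 CPM in SLTM KD libraries, and SEL1L, of degradation from that organelle, changed by 0.62, whereas DNAJB9 and ATF4 changed by -0.81 and -0.29.

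Of 13 mitochondrially encoded coding genes, 10 were higher and none lower, with a median of 0.25. MT-ND3, a complex I subunit, had 1066, 1123 and 1143 CPM in triple KD libraries, against 751, 751 and 735 CPM in SLTM KD libraries, and MT-ATP8, of the ATP synthase, averaged 301 ± 16.8 CPM in triple KD and 185 ± 13.7 CPM in SLTM KD cells. The list summed to 32866 to 36319 CPM in triple KD and 30374 to 33746 CPM in SLTM KD libraries, so the sums overlapped between groups. Of 22 p53 target genes, 9 were higher and 4 lower (40.9% and 18.2%). CDKN1A, the p21 cell cycle inhibitor, had 83.5, 80.2 and 79.4 CPM in triple KD libraries, against 63.3, 58.7 and 62.4 CPM in SLTM KD libraries, and MDM2, the p53 ubiquitin ligase, had 95.2, 97.1 and 95 CPM in triple KD libraries, against 129, 128 and 123 CPM in SLTM KD libraries. Of 45 centrosome and cilium genes, 16 were higher (35.6%) and 17 lower (37.8%), not far from the shares of well expressed genes. Without SLTM KD replicate 2, 11 were lower. POC1B was the single member over 2-fold. PCNT and NIN, of the pericentriolar material and the subdistal appendages, changed by 0.21 and 0.27, and IFT74, of intraflagellar transport, by -0.62.

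Genes that restrain transposons and viruses were followed in 3 lists. Of 12 HUSH complex and H3K9 methylation genes, 7 were higher (58.3%) and 2 lower, with changes of -0.27 to 0.21, among them MORC2, ATF7IP and SETDB1 at 0.21, 0.21 and 0.21 and MPHOSPH8, a HUSH subunit, at -0.27. Of 14 L1 restriction factors 2 were higher (4 with RLE scaling) and 3 lower, with SAMHD1 at 0.24 and RNASEH2C at -0.25. APOBEC3B averaged 1.19 ± 0.093 CPM in triple KD and 0.628 ± 0.072 CPM in SLTM KD cells (log2 fold change 0.92 ± 0.19, adjusted p = 4.95e-05). Of 22 interferon-stimulated genes 3 were higher and 4 lower, both shares below those of well expressed genes, although 9 of the 22 were under 1 CPM. STAT2 averaged 22.5 ± 0.63 CPM against 30.1 ± 1.1 CPM, and OAS3 28.4 ± 0.36 CPM against 23.1 ± 1.3 CPM.

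Sterol synthesis genes were higher in 8 and lower in 7 of 24 cases (33.3% and 29.2%), near the shares of well expressed genes. MSMO1, a methylsterol oxidase gene, had 25.5, 24.9 and 24.7 CPM in triple KD libraries, against 42.3, 44.7 and 42.9 CPM in SLTM KD libraries, and INSIG1, which retains the SREBP complex in the endoplasmic reticulum, had 97.3, 96.1 and 95.1 CPM in triple KD libraries, against 68.8, 71.4 and 70.7 CPM in SLTM KD libraries. Of 33 extracellular matrix and adhesion genes 8 were higher and 12 lower (24.2% and 36.4%). FN1, fibronectin, averaged 109.9 ± 2.9 CPM in triple KD and 77.4 ± 0.86 CPM in SLTM KD cells, and TNC, LAMC1 and COL4A5 changed by 0.65, 0.22 and -0.38. Of 10 kidney development genes 2 were higher and 4 lower. SALL1, a zinc finger factor of the nephric lineage, had 52.9, 50.6 and 49.1 CPM in triple KD libraries, against 31.6, 29.7 and 33.7 CPM in SLTM KD libraries, HOXD11 changed by 0.52, and PAX2 and EYA1 by -0.47 and -0.30.

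**Figure D5:**
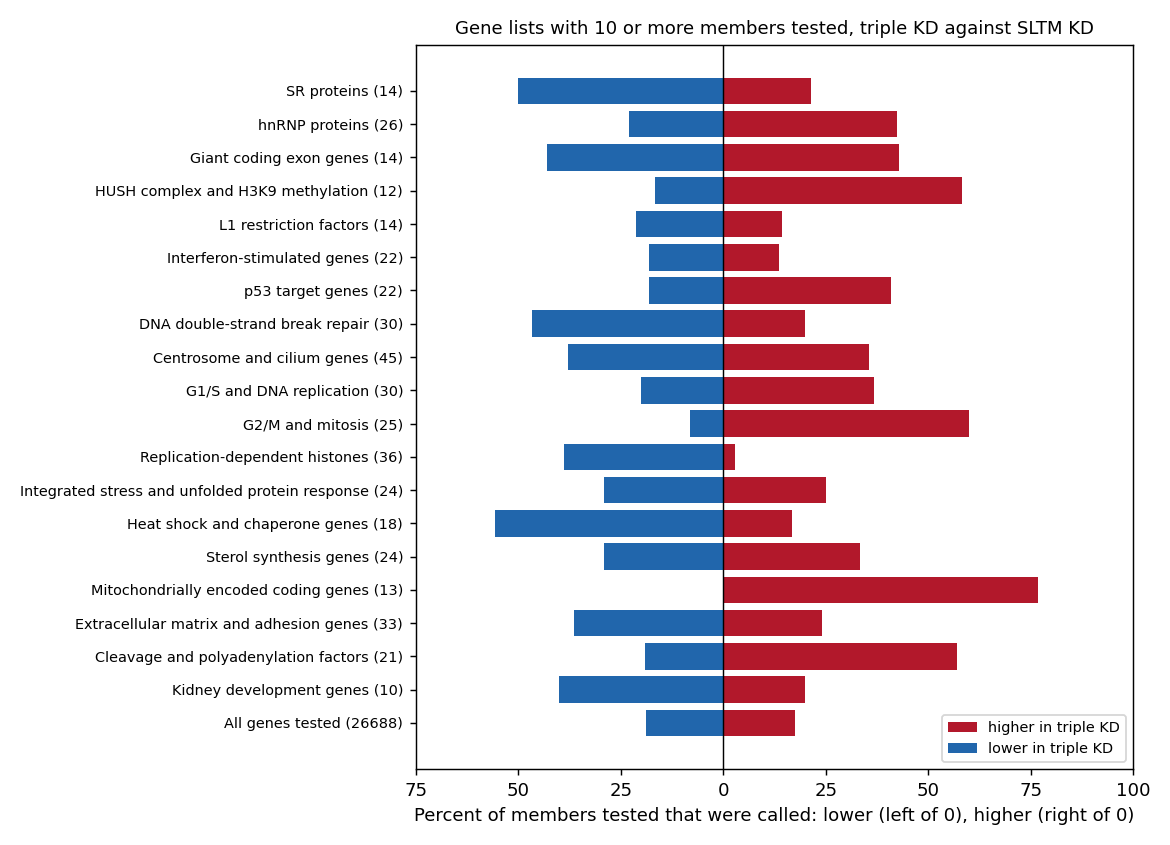
Percent of the members tested (number in brackets) that were higher, to the right of 0, or lower, to the left, in triple KD cells, relative to SLTM KD, for lists with 10 or more members. The bottom bars give all genes tested, 17.5% higher and 18.8% lower. Calls depend on level, and among genes with at least 10 CPM in either group, not drawn, 33.7% were higher and 32.9% lower. Mitochondrially encoded genes (10 of 13 higher), G2/M genes (15 of 25 higher) and histones (14 of 36 lower) are the examples described in the text.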

How the data were processed

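The deposited values are raw read counts per gene in 12 libraries, made by the authors with adaptor trimming, alignment to GRCh38 in a pair of passes with STAR 2.7.9a, GENCODE gene models and reverse-stranded counting of uniquely placed reads. Groups came from the sample titles. Gene names, types and introns were taken from GENCODE release 44, which held 99.0% of the 58780 gene IDs. Genes with at least 10 counts over the 12 libraries (26688) were fitted together with edgeR 4.0.16 (TMM scaling, quasi-likelihood F test, two-sided, Benjamini-Hochberg adjustment over all genes tested), and 2-fold changes were tested with its glmTreat. The procedure was first tested on simulated counts. The named genes were those with the largest changes among called genes with a symbol and at least 1 CPM in either group whose libraries did not overlap, the largest among coding genes of at least 10 CPM, the siRNA targets, the hosts or nested genes of these, and up to 4 called members of each list by smallest adjusted p. Other genes, such as KRT8P46, MANBA, LRP2, IFIT1P1, NCOA5, UTP14C and the list member ALG11, were named after their values were seen. The members and lists were chosen with earlier results of these data known. Alternatives used RLE or upper-quartile scaling, other filters, only the libraries compared, DESeq2 1.42.0, limma-voom (limma 3.58.1), a replicate block, and each library left out. P-values cover the spread between these replicates. A result for an item withheld for evaluation is not reported here.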

Additional observations from a re-analysis of the deposited data

Results flagged for a closer look

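Genes named for the largest changes or the largest step differences were screened here. For 37 of them, the change on the added loss (triple KD over SLTM KD) differed from that on SAFB1 siRNA in control cells (SAFB1 KD over control). The difference itself was tested, as an edgeR contrast over all 12 libraries with an adjusted p under 0.05. The genes were picked on the first step or on this difference, so passing was favoured in advance and their number is no independent support. Over all genes tested, the difference was called above 0 for 9.48% and below 0 for 11.9%. Hosts, nested genes and list members named on other grounds are not counted, although some of them, such as MBTPS2 and TIMP2, also passed this test. The values below are the difference of the 2 log2 fold changes, and above 0 means a larger value for the added loss. The first step also added the SAFB2 siRNA, which the second step did not.

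Nested processed pseudogenes had differences above 0: HSP90B2P (2.44), HMGB1P24 (4.82), PTMAP1 (3.73), G3BP1P1 (2.61), KRT8P33 (2.90), SEC14L1P1 (1.65), TNRC18P1 (3.82), PCNPP1 (1.79) and KRT8P39 (1.66). So did the nested genes CEP295NL (4.33) and ALMS1-IT1 (0.90). The coding genes above 0 were YY2 (1.75), NTN1 (1.47), SAT1 (1.51), TIGD1 (0.39), DNMT3B (1.36), KIT (0.98), WSB1 (1.24), RBPJ (1.27) and MET (1.11). Below 0 were the siRNA targets SAFB (-0.26) and SAFB2 (-2.99), of which SAFB2 was targeted in the first step only. The other genes below 0 were POC1B (-2.25), ZNF571-AS1 (-0.99), CEACAM19 (-2.08), CCDC102B (-1.89), PROX1-AS1 (-1.43), ZRANB3 (-1.64), GUCY1B2 (-1.25), FAR2 (-1.35), SEMA5B (-1.73), ZNF814 (-0.76), XK (-0.71), LRRC28 (-1.57), KYAT3 (-1.36), CCDC3 (-1.68) and SLC1A1 (-0.90). Among these 37, the smallest in size were SAFB and TIGD1, the largest HMGB1P24. The cause of these differences was not tested.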

How the results depend on the processing

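The 6 counts that answer the comparisons stayed within 1.5 times of their values under RLE and upper-quartile scaling, no filter, filterByExpr, only the libraries compared, limma-voom and the replicate block. With DESeq2, genes over 2-fold higher numbered 62 instead of 105 and genes over 2-fold lower 52 instead of 79, and 114 of the 184 genes over 2-fold passed in both. Leaving out 1 library at a time gave 4183 to 4790 genes higher, 4372 to 5063 lower, 85 to 107 over 2-fold higher and 65 to 80 over 2-fold lower, and for the step difference 2310 to 2707 higher and 2558 to 3077 lower. Of the 9679 called genes, 87.4% at the fewest were called in the same direction with a library left out and 89.3% with DESeq2. Same-strand nested processed pseudogenes over 2-fold higher numbered 35 (DESeq2) to 56 (only the libraries compared). Over 153 named genes no alternative reversed a direction of a called change, and 20 of 3047 values lost the call, among them CLDN4, NUP107 and CUBN. The step difference of ZNF571-AS1 lost its call in several alternatives. Of 1860 list and class counts, 38 moved by over 1.5 times, mostly counts of few genes.

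Same-numbered triple KD and SLTM KD libraries did not deviate together (r = 0.0369, -0.0216 and 0.082 for numbers 1, 2 and 3), so the numbers were not taken as pairs. A replicate block gave 4881 genes higher and 5204 lower, and 109 and 82 over 2-fold. Low depth is a limit for the pseudogenes, since 52 of the 53 over 2-fold higher averaged under 1 CPM in SLTM KD cells.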
